A study of Homo sapiens with 38 samples.

Results

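The HOXD cluster holds 9 protein-coding genes, HOXD1, HOXD3, HOXD4, HOXD8, HOXD9, HOXD10, HOXD11, HOXD12 and HOXD13. They were taken by symbol from a table of 58219 genes, in which each of the 9 has 1 row. Poly(A) RNA had been sequenced from wild-type H9, a widely used line of human pluripotent cells derived from an embryo, at the start of and during its conversion to neural progenitors. There are 38 libraries in 19 groups of 2. CT4.0RA cells received CT, an activator of WNT signalling whose name the labels leave unexpanded, at 4.0 µM and also retinoic acid (RA), given at 1.0 µM, and IWP2 cells received the inhibitor of WNT secretion IWP2 at 2.0 µM. Cells given CT alone are named for its dose in µM, with CT0.4, CT0.8 and CT1.0 as low doses and CT2.0, then CT3.0, then CT4.0 above them, and CT0.0 cells were untreated. Each of these 9 conditions was collected at day 4 (D4) and day 8 (D8), and undifferentiated cells at day 0 (D0 ESC). The design text assigns spinal cord to CT4.0RA, rostral forebrain to IWP2 and diencephalon, midbrain or hindbrain to CT alone. All groups come from 1 cell line, and the labels do not say whether the 2 libraries of a group were separate differentiations, so p-values measure only the spread between these libraries.

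HOX genes encode homeodomain transcription factors that give cells along the body axis their position. They lie in 4 clusters, HOXA to HOXD, and genes at the same place in different clusters are paralogues that share a number. Genes at the 3′ end of a cluster (low numbers) are switched on early and reach far forward into the hindbrain, whereas 5′ genes (numbers from 9 up) are switched on later and stay in the caudal spinal cord, limbs and tail. RA and WNT signals are both known to start expression from the 3′ end, and Polycomb complexes keep the unused 5′ part silent.

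On human chromosome 2 all 9 genes lie on the plus strand, from HOXD13 at the 5′ end (hg38, start 176092891) to HOXD1 at the 3′ end (start 176188579). The DNA in front of the transcription start is shown up to the annotated start of the gene for HOXD1 and HOXD8, before a start inside the gene model for HOXD3, and, for contrast, for HOXD13, which stayed near 0. The sequences are RefSeq's (GRCh38.p14, plus strand, 5′ to 3′), and capitals in HOXD8 mark TTTATG, the 1 match among the motifs searched. The HOXD1 stretch overlaps exons on the opposite strand, those of HAGLR among them.
HOXD1 (chr2:176188418-176188578): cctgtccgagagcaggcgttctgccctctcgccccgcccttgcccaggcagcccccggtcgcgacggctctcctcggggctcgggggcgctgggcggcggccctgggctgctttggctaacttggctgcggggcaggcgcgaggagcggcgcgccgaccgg
HOXD3 (chr2:176157057-176157306): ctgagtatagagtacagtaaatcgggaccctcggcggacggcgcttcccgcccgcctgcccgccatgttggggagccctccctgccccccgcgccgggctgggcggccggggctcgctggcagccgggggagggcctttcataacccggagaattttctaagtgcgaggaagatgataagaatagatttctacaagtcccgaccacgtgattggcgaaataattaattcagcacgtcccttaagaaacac
HOXD8 (chr2:176129455-176129693): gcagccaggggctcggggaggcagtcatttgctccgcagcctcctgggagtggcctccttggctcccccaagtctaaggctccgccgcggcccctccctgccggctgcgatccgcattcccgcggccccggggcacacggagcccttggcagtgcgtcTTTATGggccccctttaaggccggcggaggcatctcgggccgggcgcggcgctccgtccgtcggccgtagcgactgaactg
HOXD13 (chr2:176092471-176092720): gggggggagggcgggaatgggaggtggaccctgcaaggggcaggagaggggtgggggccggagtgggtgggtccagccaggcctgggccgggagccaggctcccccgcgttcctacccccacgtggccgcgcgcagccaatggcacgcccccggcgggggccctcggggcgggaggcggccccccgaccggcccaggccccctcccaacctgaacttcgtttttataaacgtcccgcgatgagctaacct
The RefSeq table held promoters of 8 of the 9 genes, all but HOXD9. In the full 250-base windows the 4 promoters shown had 74.8% (HOXD1), 59.2% (HOXD3), 72.4% (HOXD8) and 74% (HOXD13) G and C, with 31, 21, 28 and 21 CpG dinucleotides. The HOXD4 window had 47.6% and 4 CpG and is not shown because it lies wholly within an annotated exon of HOXD4. Over 35116 promoters the medians were 58% and 11 CpG. HOXD13, which stayed near 0, and the expressed HOXD3 had the same CpG count. The ratio of observed to expected CpG differed, at 0.618 for HOXD13 and 0.959 for HOXD3. The motifs searched on both strands were AGGTCA (a retinoid receptor half-site, in 12.1% of all promoter windows of this length), TTTATG (CDX proteins, 9.64%), CTTTGA (TCF and LEF proteins, 11.2%) and TGATNNAT (HOX with PBX, 6.47%). HOXD8 held 1 TTTATG, HOXD11 1 TGATNNAT and HOXD12 1 CTTTGA, and the other 5 windows held none of these letters.

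All values are TPM, a transcript level corrected for length and scaled to the same total in each library, as the authors deposited it. A change is a difference of log2(TPM + 1) ± SE from limma. It was called at a Benjamini-Hochberg adjusted p under 0.05 over all 28221 genes tested and a change of at least 1. Genes were tested when they reached 1 TPM in at least 2 of the 38 libraries, which HOXD1, HOXD3, HOXD4 and HOXD8 did and the other 5 members did not. Because 1 is added before the log, changes of these weakly expressed genes are understated: with 0.1 added, the change of HOXD3 at CT4.0 on day 4 was 3.77 in place of 1.18 and that of HOXD1 with RA on day 4 was 4.11 in place of 2.45. HOXD1 reached 1 TPM in 4 libraries, all of them CT4.0RA, and HOXD8 in 3, with both D8 CT4.0RA libraries among them. Without the CT4.0RA groups neither gene would have been tested. Their p-values in comparisons of CT4.0RA, and counts that include them, are thus not independent of the 1 TPM filter. The number of reads behind a TPM value is unknown. In bulk RNA, fewer expressing cells and less RNA per cell cannot be told apart. Of the 38 libraries, 33 were most like the other library of their group, and r of log2(TPM + 1) between partners was 0.958 to 0.972. Ribosomal protein genes held 38.6% of TPM in D8 CT4.0RA against 29.7% in D8 CT4.0, and 30.7% in D4 CT4.0RA against 23.2% in D4 CT4.0, so other genes shared a smaller part of the fixed total in the RA groups.

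The cluster was expressed from its 3′ part, in the groups with most WNT activation. HOXD4 was its main transcript, HOXD3 and HOXD1 were far lower, HOXD8 reached about 1 TPM, and nothing from HOXD9 to HOXD13 exceeded 0.160 TPM in any of the 38 libraries. In the 6 groups of CT3.0, CT4.0 and CT4.0RA, HOXD4 made up between 86.6% and 93.9% of the summed TPM of the 9 genes.

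**Figure D1:**
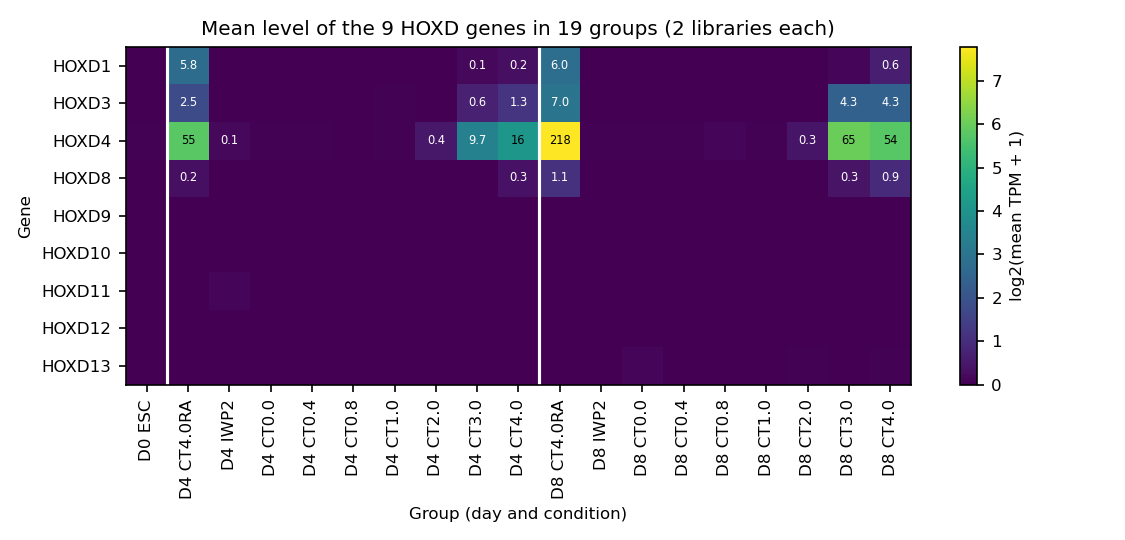
Mean TPM of each HOXD gene (rows) in each of the 19 groups (columns), coloured by log2(mean TPM + 1) with means of 0.1 TPM or more printed. Signal stands in the CT4.0RA, CT3.0 and CT4.0 columns of both days and in the rows of HOXD1, HOXD3, HOXD4 and HOXD8, with 218 TPM of HOXD4 in D8 CT4.0RA as the highest value.

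The posterior members were silent or nearly so in all 19 groups. HOXD12 was listed at 0 in all 38 libraries. HOXD9, a gene of the lower trunk, was above 0 in 1 library, with 0.0324 TPM in D8 CT4.0RA replicate 1. HOXD10, known in mice for its part in lumbar motor neuron identity, was above 0 in 1 library, with 0.0398 TPM in D4 CT0.4 replicate 1. HOXD11 was above 0 in the 2 D4 IWP2 libraries alone, with 0.0959 and 0.0526 TPM. HOXD13, the last gene of the cluster and a patterning gene of digits and tail, was above 0 in 12 libraries, and its highest value, 0.160 TPM, stood in replicate 1 of untreated D8 cells beside 0 in replicate 2. It was above 0 in 2 of the 12 libraries with CT3.0, CT4.0 or CT4.0RA and in 10 of the 26 others, so its values did not follow the groups in which the 3′ members were on. In a fit without the filter on low values, 0 of 40 comparisons were called for HOXD9, HOXD10, HOXD11 or HOXD13, and HOXD11 had the lowest Benjamini-Hochberg adjusted p in limma (0.0023, with changes of at most 0.10).

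In the 26 libraries of D0 ESC, IWP2 and CT0.0 to CT2.0, HOXD8 was listed at 0 throughout and HOXD1 was above 0 in 1 library, at 0.0383 TPM. HOXD3 reached at most 0.0707 TPM there and HOXD4 at most 0.656 TPM, in a CT2.0 library, and 0.116 TPM outside CT2.0. None of the 9 genes was called in untreated D4 cells against D0 ESC, in IWP2 against untreated cells on either day, or in CT0.4 to CT2.0 against untreated cells on either day (limma, Benjamini-Hochberg), and in these comparisons 0 of the 4 tested members had an unadjusted p under 0.05. Of all tested genes, 16.8% were called in either direction in the first, 0.283% and 0.425% with IWP2 on day 4 and day 8, and at doses of CT from 0.4 to 2.0 µM 2.23%, 2.68%, 5.22% and 5.96% on day 4 and 6.03%, 4.54%, 4.59% and 6.41% on day 8. HOXD4 had 0.116 and 0.115 TPM in D4 IWP2, against 0.0564 and 0 TPM in untreated D4 cells. The libraries of the 2 groups did not overlap, but both lay far below 1 TPM.

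HOXD4, a gene that marks the caudal hindbrain and the cord behind it, rose mainly between 2.0 and 3.0 µM CT. At CT2.0 all libraries of both days already lay above every library of D0 ESC, IWP2 and CT0.0 to CT1.0, where the highest value was 0.116 TPM. They stayed below 1 TPM and were not called against untreated cells. On day 4 it had 0.182 and 0.656 TPM at CT2.0, 8.01 and 11.4 TPM at CT3.0, and 10.2 and 22.5 TPM at CT4.0. The CT2.0 libraries lay below both higher doses, while the libraries of CT3.0 and CT4.0 overlapped. On day 8 it had 0.263 and 0.429 TPM at CT2.0, 61.3 and 68.6 TPM at CT3.0, and 48.8 and 58.3 TPM at CT4.0, so here CT4.0 was below CT3.0 in both libraries. HOXD4 rose at CT3.0 against CT2.0 by 2.92 ± 0.23 on day 4 (limma with Benjamini-Hochberg adjustment, adjusted p = 4.17e-09) and by 5.62 ± 0.23 on day 8 (adjusted p = 4.08e-14). From CT3.0 to CT4.0 the change was 0.62 on day 4 (adjusted p = 0.491) and -0.28 on day 8 (adjusted p = 0.843) by the same test, with 95% intervals of 0.14 to 1.10 and -0.76 to 0.21.

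HOXD3, which works with its HOXA paralogue in the vertebrae and tissues of the neck in mice, appeared at the same doses and at much lower levels. On day 4 it had 0 and 0.0295 TPM at CT2.0, 0.765 and 0.525 TPM at CT3.0, and 1.54 and 1.03 TPM at CT4.0. On day 8 it was listed at 0 in both CT2.0 libraries and had 3.24 and 5.44 TPM at CT3.0 and 3.56 and 5.02 TPM at CT4.0. The libraries of CT3.0 and CT4.0 were separate on day 4 and overlapped on day 8. At CT3.0 against CT2.0 HOXD3 rose on day 8, by 2.39 ± 0.22 (limma with Benjamini-Hochberg adjustment, adjusted p = 1.05e-08), whereas its change on day 4, 0.69 (adjusted p = 0.0389), stayed below a change of 1.

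HOXD8, the most 5′ member with a signal, was listed at 0 in both D4 CT3.0 libraries and had 0.229 and 0.400 TPM in D4 CT4.0. On day 8 it had 0.374 and 0.291 TPM at CT3.0 and 0.641 and 1.19 TPM at CT4.0. Both CT4.0 libraries lay above both CT3.0 libraries on each day, but the changes between these doses, 0.39 and 0.51, were not called (limma with Benjamini-Hochberg adjustment, adjusted p = 0.373 and 0.0827). HOXD1, the most 3′ member, whose relatives of group 1 pattern the hindbrain, stayed below 1 TPM under CT alone. It had 0.0729 and 0.177 TPM at D4 CT3.0, 0.224 and 0.258 TPM at D4 CT4.0, 0.153 and 0 TPM at D8 CT3.0 and 0.641 and 0.536 TPM at D8 CT4.0. Levels under CT alone did not run in the order of position: HOXD4 was the highest of the 4 at each of these doses, and HOXD1, at the 3′ end, was lower than both HOXD4 and HOXD3.

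Counted over the 9 members, CT3.0 against CT2.0 gave 1 called higher on day 4 (HOXD4), where 2.04% of all tested genes were, and 2 on day 8 (HOXD3 and HOXD4), where 4.08% were. CT4.0 against CT3.0 gave 0 on day 4 and 0 on day 8, beside 0.0638% and 0.195% of all tested genes, and 3 and 2 of the 4 tested members had an unadjusted p under 0.05 there. Without D4 CT4.0 replicate 1, HOXD4 was called on day 4, so this count of 0 rests on that library. CT4.0 against untreated cells gave HOXD3 and HOXD4 on each day, 2 of 9, beside 3.31% on day 4 and 3.15% on day 8. HOXD4 rose by 3.98 ± 0.23 on day 4 and by 5.73 ± 0.23 on day 8 in this comparison (limma with Benjamini-Hochberg adjustment, adjusted p = 8.16e-12 and 1.46e-14), and HOXD3 by 1.18 ± 0.22 and 2.39 ± 0.22 (adjusted p = 0.000222 and 7.25e-09). HOXD8 changed by 0.92 on day 8 (adjusted p = 5.16e-06), below the change of 1 that a call needs, and was called at 1.01 when TPM was rescaled between libraries by the trimmed mean of M values (TMM). The comparisons with untreated cells share their untreated libraries, and CT4.0 libraries enter both this comparison and the one with RA.

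**Figure D2:**
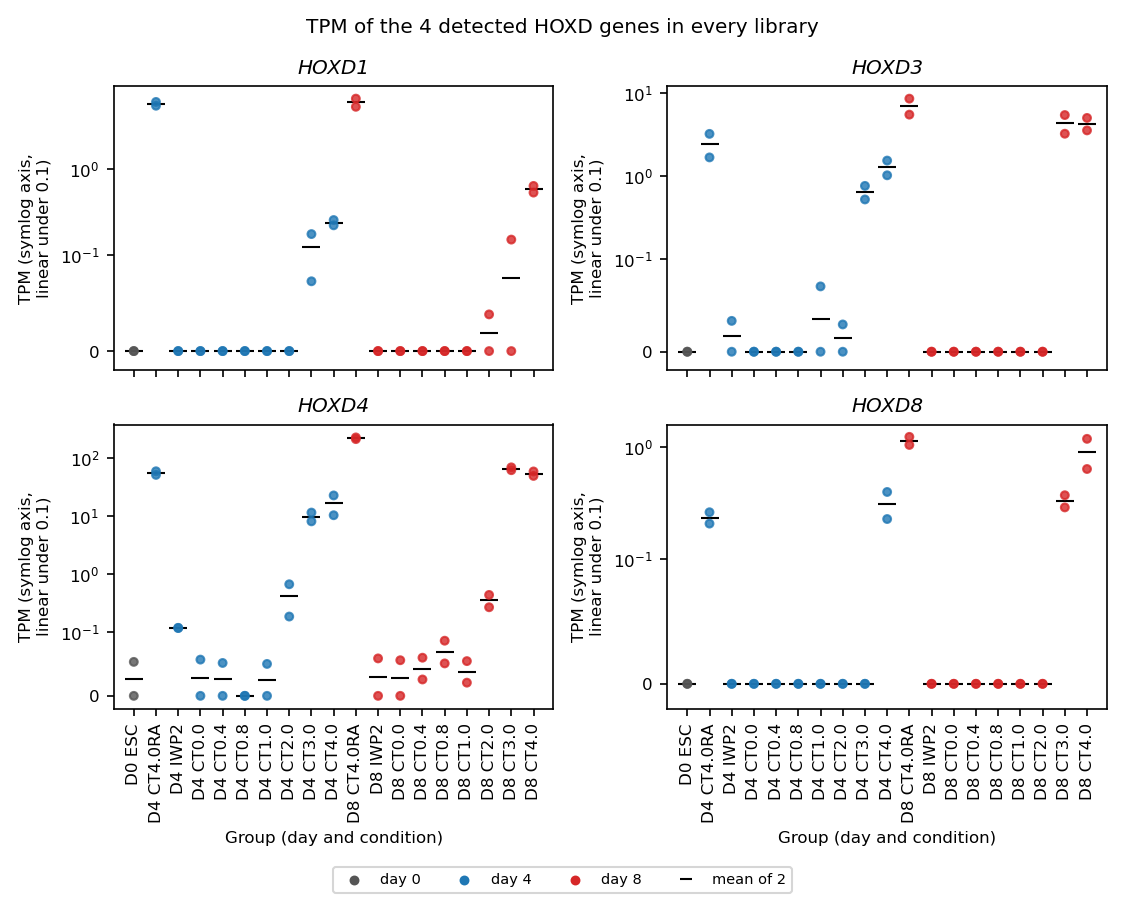
TPM of HOXD1, HOXD3, HOXD4 and HOXD8 (1 panel each, axis linear under 0.1 and logarithmic above) in all 38 libraries, as 2 points and their mean per group, with CT4.0RA drawn left of the CT series of its day. HOXD1 stood above 5 TPM in the 4 CT4.0RA libraries and below 1 TPM in all others, while HOXD4 stood at 8.01 TPM or more in all 12 libraries of CT3.0, CT4.0 and CT4.0RA.

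RA added to CT4.0 raised HOXD1 and HOXD4 on both days. HOXD1 had 6.06 and 5.47 TPM in D4 CT4.0RA, against 0.224 and 0.258 TPM in D4 CT4.0, a ratio of means of 23.97. On day 8 it had 6.62 and 5.32 TPM in CT4.0RA, against 0.641 and 0.536 TPM in CT4.0, a ratio of 10.1. The 4 RA libraries were the 4 highest of all 38 for this gene and did not overlap with any other group. HOXD1 rose by 2.45 ± 0.13 on day 4 and by 2.13 ± 0.13 on day 8 (limma with Benjamini-Hochberg adjustment, adjusted p = 2.99e-12 and 1.92e-11). It passed the filter for testing through these RA libraries alone, so the p-values are no separate evidence beside the values above.

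HOXD4 had 58.7 and 50.8 TPM in D4 CT4.0RA, against 10.2 and 22.5 TPM in D4 CT4.0, and 226 and 211 TPM in D8 CT4.0RA, against 48.8 and 58.3 TPM in D8 CT4.0. The libraries with and without RA did not overlap on either day, and the ratios of means were 3.35 and 4.08. HOXD4 rose by 1.78 ± 0.23 and 2.01 ± 0.23 (limma with Benjamini-Hochberg adjustment, adjusted p = 4.31e-06 and 4.77e-07). HOXD3 had 1.68 and 3.23 TPM in D4 CT4.0RA, against 1.54 and 1.03 TPM in D4 CT4.0, and 5.501 and 8.56 TPM in D8 CT4.0RA, against 3.56 and 5.02 TPM in D8 CT4.0. It was higher in all RA libraries of each day, but its changes of 0.57 (95% interval 0.12 to 1.02, adjusted p = 0.0655) and 0.59 (0.14 to 1.04, adjusted p = 0.048) were not called by limma with Benjamini-Hochberg adjustment. Leaving out 1 library gave 0.24 to 0.90 on day 4 and 0.31 to 0.87 on day 8, lowest without RA replicate 2 on each day and highest without RA replicate 1.

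HOXD8 had 0.264 and 0.209 TPM in D4 CT4.0RA, against 0.229 and 0.400 TPM in D4 CT4.0, and 1.24 and 1.05 TPM in D8 CT4.0RA, against 0.641 and 1.19 TPM in D8 CT4.0. The libraries overlapped on both days, and the changes were -0.09 (95% interval -0.36 to 0.19) and 0.18 (-0.10 to 0.45), with adjusted p = 0.771 and 0.388 from limma. In all, RA against CT4.0 called 2 of the 9 members higher on each day, beside 1.77% of all tested genes on day 4 and 4.54% on day 8. None was called lower. The effect of RA was not called different between days for any member (0 called, 7.13% of all tested genes, 0 of 4 tested members with an unadjusted p under 0.05; limma), with differences of day 8 less day 4 between -0.32 for HOXD1 and 0.26 for HOXD8.

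The spread behind these tests was estimated over all 19 groups, and in most of them the members are listed at or near 0. When the spread was taken from the 12 libraries of CT3.0, CT4.0 and CT4.0RA alone, a fit added after the data were seen, the same members were called with RA, at adjusted p = 0.00012 and 0.000111 for HOXD1 and 0.0108 and 0.00475 for HOXD4 on day 4 and day 8 (limma with Benjamini-Hochberg adjustment). HOXD1 passed the filter through RA libraries alone, so its p-values are no separate evidence here either. HOXD3 stayed not called with RA, at adjusted p = 0.324 and 0.277 by the same test. The SE was 0.336 in place of 0.22 for HOXD3 and 0.325 in place of 0.23 for HOXD4. Intervals from the fit over 19 groups are thus narrower than the spread in these 12 libraries gives.

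CT4.0RA against untreated cells called HOXD1, HOXD3 and HOXD4 on day 4, 3 of 9 beside 3.13% of all tested genes, and these with HOXD8 on day 8, 4 of 9 beside 3%. HOXD4 had the largest of these changes, 5.76 ± 0.23 on day 4 and 7.74 ± 0.23 on day 8 (limma with Benjamini-Hochberg adjustment, adjusted p = 1.02e-14 and 1.08e-16). HOXD8 was called with a change of 1.10 ± 0.13 (adjusted p = 3.99e-07 by the same test). HOXD1 and HOXD8 would have missed the filter for testing without the CT4.0RA libraries. Their p-values and the counts of 3 and 4 members are therefore not independent of it.

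Between day 4 and day 8, HOXD3 and HOXD4 rose in each of the 3 conditions that expressed them. At CT3.0, HOXD4 averaged 64.9 ± 5.18 TPM on day 8 and 9.68 ± 2.37 TPM on day 4 (SD, n = 2 each), and 2 of 9 members were called, beside 2.08% of all tested genes. At CT4.0 it averaged 53.6 ± 6.71 TPM on day 8 and 16.3 ± 8.66 TPM on day 4, with 2 of 9 called beside 1.95%. At CT4.0RA it averaged 218 ± 10.4 TPM on day 8 and 54.8 ± 5.56 TPM on day 4, with 2 of 9 called beside 3.26%. HOXD4 rose by 2.64, 1.74 and 1.98 in these conditions, each ± 0.23 (limma with Benjamini-Hochberg adjustment, adjusted p = 2.3e-08, 6.09e-06 and 9.2e-07).

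HOXD3 rose by 1.67, 1.21 and 1.23, each ± 0.22 (limma with Benjamini-Hochberg adjustment, adjusted p = 4.23e-06, 0.00021 and 0.000165). In the fit on CT3.0, CT4.0 and CT4.0RA alone, HOXD3 kept these calls with less margin. Adjusted p was 0.0142, 0.0474 and 0.0466 there by the same test. Its call at CT4.0RA was lost without D8 replicate 2 (change 0.95) and without D4 replicate 1 (0.90). HOXD1 did not follow: at CT4.0RA it averaged 5.97 ± 0.92 TPM on day 8 and 5.76 ± 0.41 TPM on day 4, its libraries overlapped, and the change was 0.04 with a 95% interval of -0.23 to 0.30 (adjusted p = 0.966 from limma). The change of HOXD8 at CT4.0RA, 0.80 (adjusted p = 7.85e-05), was below 1 and not called.

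The summed level of the 9 HOXD genes was higher with RA, and the sums of the other 3 clusters were lower. The HOXD sum in CT4.0RA was 63.2 ± 4.92 TPM on day 4, against 18.2 ± 8.44 TPM in CT4.0, and 233 ± 9.33 TPM on day 8, against 59.4 ± 8.11 TPM in CT4.0 (SD, n = 2 each). Both RA libraries lay above both CT4.0 libraries on each day. The HOXA sum was 44.9 ± 1.12 TPM in D4 CT4.0RA, against 565 ± 164 TPM in D4 CT4.0, and 96.5 ± 0.80 TPM in D8 CT4.0RA, against 487 ± 76.3 TPM in D8 CT4.0. The HOXC sum was 8.48 ± 3.52 TPM in D4 CT4.0RA, against 458 ± 104 TPM in D4 CT4.0, and 49.98 ± 4.99 TPM in D8 CT4.0RA, against 393 ± 68.8 TPM in D8 CT4.0. The HOXB sum was 805 ± 87.7 TPM in D4 CT4.0RA, against 1667 ± 176 TPM in D4 CT4.0, and 1327 ± 52.8 TPM in D8 CT4.0RA, against 1599 ± 60.6 TPM in D8 CT4.0. The RA libraries were the lower ones in those 3 clusters on both days, without overlap. For HOXB on day 8 the difference was small: 6 of 9 tested genes were not called, and the median change of all 9 was -0.30, or -0.19 after TMM scaling. These sums are not corrected for the higher ribosomal share in the RA groups. HOXD was the smallest cluster in CT4.0 cells, and in D8 CT4.0RA cells its sum lay above those of HOXA and HOXC.

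**Figure D3:**
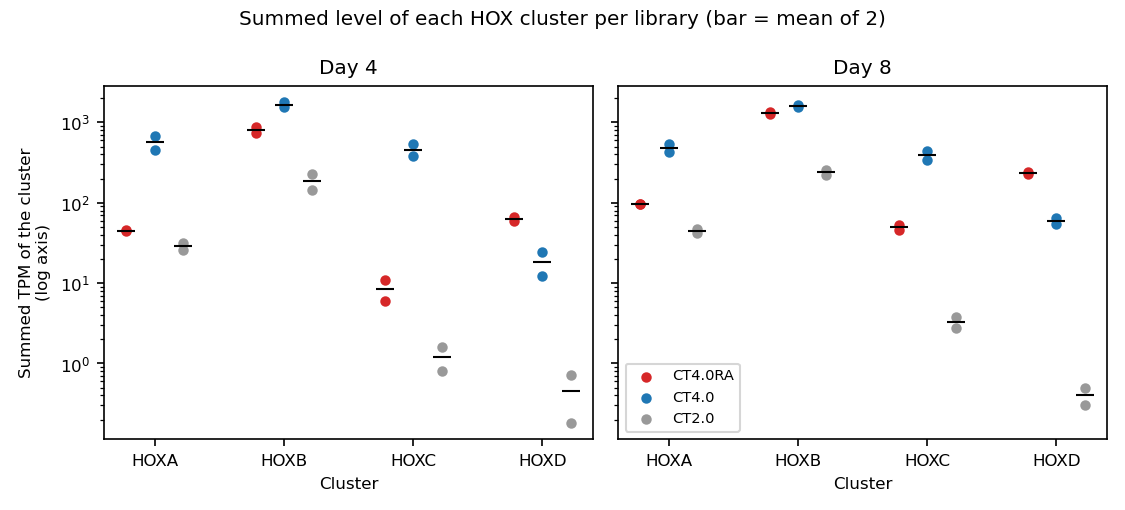
Summed TPM of the genes of each HOX cluster (log axis) in each library of CT4.0RA, CT4.0 and CT2.0 on day 4 and day 8, with a bar at the mean of 2. The HOXD points lie higher in CT4.0RA than in CT4.0 and the points of HOXA, HOXB and HOXC lie lower.

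Among tested genes, RA called 0 higher and 8 lower of 9 in HOXA on day 4 and 1 higher and 5 lower on day 8. In HOXC it called 0 higher and 5 lower of 6 on day 4 and 0 higher and 6 lower on day 8. In HOXB it called 1 higher and 7 lower of 9 on day 4, which became 1 higher and 2 lower after TMM scaling, and 1 higher and 2 lower of 9 on day 8. Of all tested genes, RA called 1.77% higher and 4.07% lower on day 4 and 4.54% higher and 4.33% lower on day 8.

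The paralogues of HOXD4 were lower with RA. HOXA4 averaged 10.3 ± 0.33 TPM in D8 CT4.0RA and 73.2 ± 9.65 TPM in D8 CT4.0, HOXB4 73.9 ± 1.24 TPM in D8 CT4.0RA and 141 ± 6.15 TPM in D8 CT4.0, and HOXC4 44.8 ± 4.18 TPM in D8 CT4.0RA and 168 ± 22.6 TPM in D8 CT4.0. HOXA4 and HOXC4 fell on day 8, by 2.71 and 1.88 (limma with Benjamini-Hochberg adjustment, adjusted p = 3.19e-11 and 1.04e-06), and HOXB4 changed by -0.93, which was not called (adjusted p = 0.0274). On day 4 HOXB4 fell by 1.08 (adjusted p = 0.0126), a call that was lost after TMM scaling (-0.80). The RA effect on HOXD4 exceeded that on HOXA4 by 3.92 (95% interval 3.44 to 4.40) on day 4 and 4.72 (4.24 to 5.20) on day 8, that on HOXB4 by 2.86 (2.30 to 3.42) and 2.94 (2.38 to 3.50), and that on HOXC4 by 6.76 (6.20 to 7.32) and 3.90 (3.34 to 4.46). These intervals come from a linear model of the difference between both genes within each library, with 19 residual degrees of freedom. Their spread was estimated over all 19 groups, in most of which these genes are at or near 0. No such model was fitted to CT3.0, CT4.0 and CT4.0RA alone, so the intervals may be too narrow for CT4.0 and CT4.0RA.

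HOXB1, a paralogue of HOXD1, changed in the same direction. It averaged 194 ± 16.3 TPM in D8 CT4.0RA and 31.2 ± 0.01 TPM in D8 CT4.0, and rose with RA by 1.73 on day 4 and 2.60 on day 8 (limma with Benjamini-Hochberg adjustment, adjusted p = 3.78e-08 and 3.55e-11). The RA effect on HOXD1 exceeded that on HOXB1 by 0.72 (95% interval 0.37 to 1.07) on day 4 and was smaller by 0.47 (difference -0.47, -0.82 to -0.12) on day 8, but with a pseudocount of 0.1 TPM, tried after the data were seen, the day 8 difference was 0.51 (-0.58 to 1.59), so its direction depends on that choice. In group 3, the RA effect on HOXD3 exceeded that on HOXA3 by 3.604 (2.83 to 4.38) and 1.22 (0.45 to 2.00) and that on HOXB3 by 1.59 (0.82 to 2.36) and 0.89 (0.12 to 1.65) on day 4 and day 8. With a pseudocount of 0.1 TPM the 2 day 8 intervals of HOXD3 included 0 (-0.09 to 2.76 against HOXA3 and -0.69 to 2.65 against HOXB3). All these intervals, too, rest on the spread over all groups and may be too narrow for CT4.0 and CT4.0RA.

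**Figure D4:**
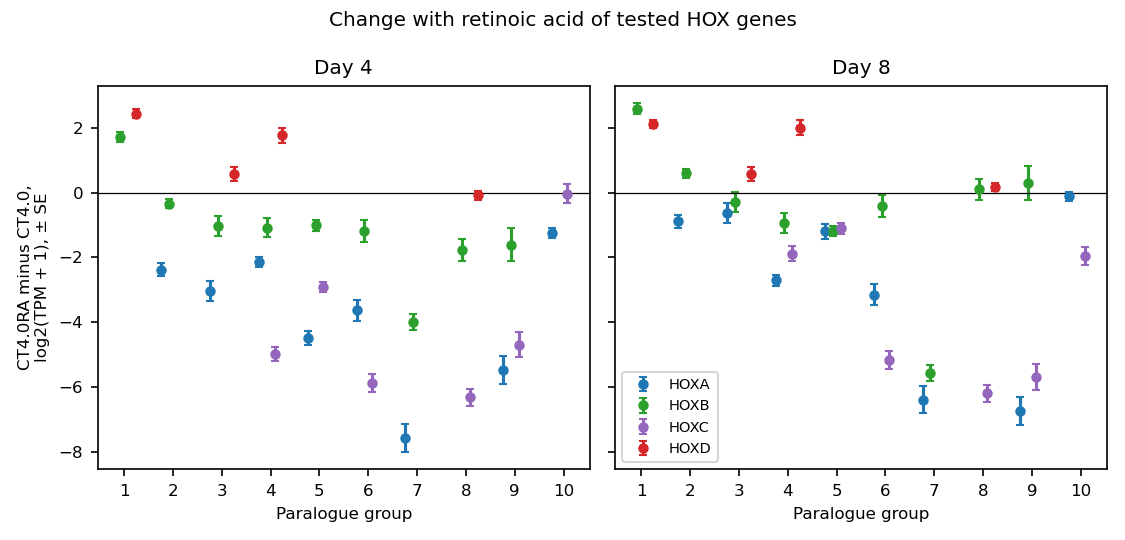
Change with RA (CT4.0RA minus CT4.0, log2(TPM + 1), ± SE) of tested HOX genes by paralogue group, with HOXA genes from group 2 on, on day 4 and day 8, coloured by cluster. HOXD4 stands at 1.78 and 2.01 while its 3 paralogues lie below 0, and HOXD1 and HOXB1 lie above 0 on both days.

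Posterior genes of the other clusters did reach measurable levels in these cells. A group mean of 1 TPM was reached by 0 of 5 HOXD genes numbered 9 to 13, against 2 of 4 in HOXA, 1 of 2 in HOXB and 2 of 5 in HOXC. HOXA9 averaged 110 ± 13.6 TPM in D8 CT4.0 and HOXC9 51.8 ± 12.3 TPM, where HOXD9 was at 0 in both libraries. In D8 CT4.0RA, labelled spinal cord, HOXC8 and HOXC9 were at 0 in both libraries and HOXA9 averaged 0.018 TPM, whereas HOXB9 averaged 218 ± 37.1 TPM and HOXB8 88.3 ± 5.38 TPM. Of these group 8 and 9 genes, which mark the thoracic cord, the HOXB members were thus expressed and the HOXC members listed at 0.

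Of 11 tested genes beside and between the HOXD genes, RA called 1 higher on day 4 and 2 on day 8, or 2 and 3 after TMM scaling, where 1.77% and 4.54% of all tested genes were called higher. This count leaves out 2 genes named only by an identifier which were called higher on both days. MIR10B, called on day 8 and described below, would have missed the filter for testing without the CT4.0RA libraries. So would 1 of the 2 genes named by an identifier. These calls, and the counts that include them, are not independent of that filter. HAGLR, an antisense RNA gene whose start overlaps that of HOXD1, had 18.4 and 21.8 TPM in D4 CT4.0RA, against 1.82 and 3.69 TPM in D4 CT4.0, and 20.3 and 17.0 TPM in D8 CT4.0RA, against 2.51 and 4.76 TPM in D8 CT4.0. It rose with RA by 2.53 and 2.12 (limma with Benjamini-Hochberg adjustment, adjusted p = 1.4e-08 and 1.32e-07), without overlap of libraries. Its exons share 158 bases with those of HOXD1 on the opposite strand, and another antisense gene named only by an identifier shares 989 bases, 50.1% of the 1975 exonic bases of HOXD1. HOXD10 and HOXD11 share 452 exonic bases on the same strand, and HOXD-AS2 shares 379 of the 3548 exonic bases of HOXD3 on the opposite strand. The labels do not say whether the libraries keep strand, so reads from bases shared on opposite strands cannot be told apart here. For HOXD10 and HOXD11, strand would not separate the shared bases. HAGLROS averaged 4.63 ± 0.23 TPM in D8 CT4.0RA and 1.83 ± 0.11 TPM in D8 CT4.0, a change of 0.99 that was just below 1.

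HOXD-AS2, antisense near HOXD8, averaged 0.98 ± 0.01 TPM in D8 CT4.0RA and 1.43 ± 0.004 TPM in D8 CT4.0 and was not called, as for HOXD8 itself. MIR10B, the microRNA gene just upstream of HOXD4, had 22.2 and 8.08 TPM in D8 CT4.0RA and was listed at 0 in all other groups except for 1.92 TPM in 1 D8 CT1.0 library. Poly(A) libraries do not measure mature microRNA, and for a gene of 110 bases few reads give a high TPM.

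A protein-coding gene on the same strand, named only by its identifier ENSG00000278500.1, shares 1178 of the 1464 exonic bases of HOXD4 (80.5%) and 2206 of the 3548 of HOXD3 (62.2%). It averaged 40.1 ± 3.11 TPM in D8 CT4.0RA and 9.66 ± 1.89 TPM in D8 CT4.0, so part of the reads of HOXD4 and HOXD3 may have been assigned to it, or the reverse, and the split between these 3 genes is uncertain. It moved with RA in the same direction as HOXD4, by 1.96 on day 8 (limma with Benjamini-Hochberg adjustment, adjusted p = 5.98e-07).

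Genes that flank the cluster are expressed in other patterns. EVX2, the homeobox gene beyond HOXD13, reached at most 0.259 TPM, in D8 CT1.0. MTX2, a mitochondrial import gene beyond HOXD1, averaged 36.6 ± 0.35 TPM in D8 CT4.0RA and 53.5 ± 1.12 TPM in D8 CT4.0, and was expressed in all groups. LNPK, on the HOXD13 side, averaged 21.0 ± 2.06 TPM in D8 CT4.0RA and 29.8 ± 1.61 TPM in D8 CT4.0. Neither was called with RA on either day. LNPK was called at CT4.0 against untreated cells on day 4, with a change of 1.02 (adjusted p = 0.00325 from limma). Of ATP5G3, ATF2, CHN1, HNRNPA3 and NFE2L2, farther out, none was called with RA on either day.

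Known regulators of HOX genes moved between the same groups. CDX2, a caudal activator of HOX genes, averaged 7.90 ± 0.26 TPM in D4 CT4.0RA and 179 ± 20.6 TPM in D4 CT4.0, and 0.73 ± 0.32 TPM in D8 CT4.0RA and 131 ± 12.4 TPM in D8 CT4.0. CDX1, a retinoid target in mice, averaged 253 ± 5.11 TPM in D4 CT4.0RA and 16.3 ± 8.13 TPM in D4 CT4.0, and 77.6 ± 10.4 TPM in D8 CT4.0RA and 0.82 ± 0.67 TPM in D8 CT4.0. Of the 11 tested genes of the retinoid list, 6 were called higher and 3 lower with RA on day 4 and 8 higher and 2 lower on day 8, beside the all-gene shares of 1.77% and 4.07% on day 4 and 4.54% and 4.33% on day 8. Among them RARB, the retinoid receptor gene that retinoic acid itself induces, averaged 31.1 ± 1.31 TPM in D8 CT4.0RA and 0.47 ± 0.04 TPM in D8 CT4.0, and CYP26A1, which degrades retinoic acid, 239 ± 30.1 TPM in D8 CT4.0RA and 0.32 ± 0.12 TPM in D8 CT4.0.

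Cofactors that bind DNA with HOX proteins were called higher for 4 of 9 genes and lower for 1 with RA on day 4, and for 6 and 1 on day 8, beside the same all-gene shares. MEIS2 averaged 146 ± 4.51 TPM in D8 CT4.0RA and 3.37 ± 3.34 TPM in D8 CT4.0, and MEIS1 52.7 ± 0.47 TPM in D8 CT4.0RA and 4.28 ± 1.30 TPM in D8 CT4.0. Of 13 Polycomb genes, 1 was called higher and 3 lower on day 4, or 1 and 0 after TMM scaling, and 2 higher and 2 lower on day 8, where the all-gene shares were 1.77% and 4.07% on day 4 and 4.54% and 4.33% on day 8. CBX7 was among those higher on both days, at 2.26 ± 0.26 TPM in D8 CT4.0RA and 0.21 ± 0.05 TPM in D8 CT4.0.

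Markers of other cell types differed between the groups that express HOXD. The 4 neuromesodermal and primitive streak markers found summed to 2.09 and 2.57 TPM in D4 CT4.0RA, against 173 and 213 TPM in D4 CT4.0, and to 0.664 and 1.04 TPM in D8 CT4.0RA, against 41.7 and 43.2 TPM in D8 CT4.0, with 2 of the 4 at 0 in D8 CT4.0RA and 1 in D8 CT4.0. In CT3.0 they summed to 118 and 182 TPM on day 4 and to 22.7 and 28.0 TPM on day 8, and in CT2.0 to at most 0.7495 TPM. Paraxial mesoderm markers (7 genes) summed to 17.2 and 11.6 TPM in D8 CT4.0RA, against 4.05 and 3.06 TPM in D8 CT4.0, and lateral and limb mesoderm markers (6 genes) to at most 0.783 TPM in the 6 groups that express HOXD. Of the 5 paraxial genes tested, RA called 1 higher on each day and 4 did not pass. The 7 neural progenitor markers summed to 1588 and 1583 TPM in D8 CT4.0RA, against 1258 and 1128 TPM in D8 CT4.0, and to 1045 and 969 TPM in D4 CT4.0RA, against 1342 and 1190 TPM in D4 CT4.0, with none at 0. By gene, RA called 2 of these 7 higher and 1 lower on day 4, and 4 higher and 0 lower on day 8. The median change on day 4 was 0.57, so the lower sum did not have the direction of the median marker. All-gene shares called higher and lower were 1.77% and 4.07% on day 4 and 4.54% and 4.33% on day 8. The 5 neuron markers, none at 0, summed to 342 and 388 TPM in D8 CT4.0RA, against 180 and 190 TPM in D8 CT4.0, and to 106 and 93.5 TPM in D4 CT4.0RA, against 189 and 262 TPM in D4 CT4.0. On day 4 RA called 1 of these 5 higher and 1 lower, with a median change of 0.45, so here too sum and median differed in direction. On day 8 it called 2 higher and 0 lower. The 6 neural crest markers summed to 5.88 and 7.96 TPM in D4 CT4.0RA, against 37.8 and 32.7 TPM in D4 CT4.0, and to 14.5 and 15.1 TPM in D8 CT4.0RA, against 19.7 and 19.4 TPM in D8 CT4.0. The 5 endoderm markers summed to 1.28 and 2.00 TPM in D4 CT4.0RA, against 0.0564 and 0.0745 TPM in D4 CT4.0, and to 3.76 and 2.76 TPM in D8 CT4.0RA, against 0.124 and 0.0233 TPM in D8 CT4.0. Only 1 of these 5 reached the level for testing, and it was called higher with RA on both days. In D4 CT4.0RA paraxial mesoderm markers summed to 10.99 and 9.57 TPM, against 5.01 and 8.00 TPM in D4 CT4.0, and the 5 pluripotency markers to 79.6 and 80.9 TPM, against 109 and 98.7 TPM in D4 CT4.0, with 36.3 and 38.3 TPM in D8 CT4.0RA, against 50.9 and 54.1 TPM in D8 CT4.0. The part of these cell types in the HOXD values was not tested.

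Genes close to each member in pattern, by Pearson r of log2(TPM + 1) over the 19 group means, are given as a description, since the groups share doses and day. HOXD4 ran closest to HOXB4 (r = 0.95), GPR20 (0.95) and GABRB2 (0.94), and HOXD3 to GPR20 (0.92), HOXB4 (0.91) and SIGLEC10 (0.90). HOXD1 ran close to NPC1L1 (0.97) and CD207 (0.96), and HOXD8 closest to GPR20 (0.85), PPY (0.85) and SIGLEC10 (0.85). Among the members, r was 0.983 for HOXD3 with HOXD4, 0.929 for HOXD3 with HOXD8 and 0.755 for HOXD1 with HOXD4.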

How the data were processed

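Poly(A) RNA of H9 cells was read paired-end on 1 of 2 Illumina HiSeq models that the labels do not tie to a library. The authors deposited 1 table of TPM per gene for all 38 libraries. The submitters' processing notes name the tools CASAVA (version 1.7) and Salmon (version 0.8.2) and the build hg38, without settings. TPM sums to a fixed total per library and keeps no depth. Here, R 4.3.3 and limma 3.58.1 (lmFit, contrasts.fit, eBayes with trend) were run on log2(TPM + 1) for the 28221 genes that reached 1 TPM in 2 or more libraries, with 19 group means, 19 residual degrees of freedom and 40 contrasts. The code was tested on simulated data. The members, lists, comparisons and tests were chosen with earlier results of these data known.

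The alternatives were a pseudocount of 0.1, no filter on low values, TMM scaling computed on the TPM table, the replicate number as a block, leaving out each library in turn and, added after the data were seen, a fit on the 6 groups of CT3.0, CT4.0 and CT4.0RA and the pseudocount of 0.1 for differences between paralogues. No identical libraries were found. Named genes were the 9 members, their neighbours, from each list the 3 largest called changes whose replicates do not overlap and the most expressed gene that did not pass, and the 3 genes of most similar pattern. The paralogues of HOXD1, HOXD3 and HOXD4, HOXA9, HOXB9 and HOXC9 were named after their values were seen. Some genes that these rules name are not reported here. Gene positions and exon overlaps come from GENCODE release 29, and promoters from RefSeq.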

Additional observations from a re-analysis of the deposited data

How the results depend on the processing

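With a pseudocount of 0.1, CT4.0 against untreated cells called 4 members on day 4 and 4 on day 8, in place of 2, because HOXD1 and HOXD8 passed a change of 1. It also called 2 members for D4 CT3.0 against D4 CT2.0, in place of 1 (HOXD3 added), and 1, in place of 0, for CT4.0 against CT3.0 on day 4 (HOXD8) and on day 8 (HOXD1). Leaving out 1 library gave 0 to 1 members for D4 CT4.0 against D4 CT3.0, with HOXD4 called without D4 CT4.0 replicate 1. Leaving out 1 library at a time gave 1 to 2 members for D8 CT4.0RA against D4 CT4.0RA, the call of HOXD3 being lost without D4 CT4.0RA replicate 1 (0.90) or D8 CT4.0RA replicate 2 (0.95). The other counts of called members were within 1.5 times of the reported ones under the alternatives run on them. TMM scaling added HOXD8 for D8 CT4.0 against D8 CT0.0 (3 members in place of 2). The median of all genes was shifted by -0.27 in that comparison and by -0.18 in D4 CT4.0RA against D4 CT4.0, and TMM moved the share of calls that were higher to 42.7% against 19.9% for D8 CT4.0 over D8 CT0.0, to 48.4% against 30.3% for RA on day 4, to 50.3% against 39.9% for D4 CT4.0 over D4 CT0.0, and to 44.9% against 31.7% for D8 CT3.0 over D8 CT2.0.

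Except for the difference from HOXB1 given last, signs turned only for changes that were not called. Leaving out 1 library at a time gave -0.097 to 0.173 for HOXD1 in D8 CT4.0RA against D4 CT4.0RA, and for HOXD8 with RA -0.180 to 0.008 on day 4 and -0.032 to 0.386 on day 8. The difference between days in the RA effect ran from -0.308 to 0.348 for HOXD3 and from -0.298 to 0.766 for HOXD4, and for HOXD3 it was -0.155 at a pseudocount of 0.1 and -0.082 under TMM. The day 8 RA effect on HOXD1 less that on HOXB1 was 0.505 at a pseudocount of 0.1, an alternative added after the data were seen, against -0.47 at 1. The cause was not tested.

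The replicate numbers did not pair the libraries: deviations of same-numbered libraries correlated between -0.043 and 0.037 over 171 pairs of groups. With the replicate block, RA called 2 members on each day, and no count changed. With 2 libraries a group, differences within the spread of these pairs were not detectable, and values under 1 TPM rest on an unknown number of reads.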
